A study of Homo sapiens with 6 samples.

Results

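The genes examined encode the core machinery that makes and uses microRNAs and small interfering RNAs (siRNAs): DROSHA, DGCR8, XPO5, DICER1, TARBP2, the 4 Argonautes AGO1 to AGO4, and TNRC6A. These 10 genes were taken by symbol from a table of 59653 gene symbols, and all 10 were found and passed the filter on low counts. The cells were PA1, an established human ovarian teratocarcinoma line of wild-type genotype per the labels, transfected in adherent culture with a control siRNA or with siRNA against SOX2, a pluripotency transcription factor. The series design names 2 SOX2 siRNAs without saying whether they were pooled. Transfer to non-adherent plates, whose poly-HEMA coating blocks attachment, followed 24 h after transfection, and RNA was taken after a further 72 h. Each group had 3 libraries, so every library, control included, came from a single line, had received a synthetic siRNA and had grown without anchorage. The labels do not say whether the 3 libraries of a group came from separate cultures, so p-values measure only the spread between these libraries.

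In this pathway, DROSHA and its RNA-binding partner DGCR8 form the Microprocessor, which cuts hairpins out of primary microRNA transcripts in the nucleus. XPO5 carries the hairpins to the cytoplasm, where DICER1, helped by TARBP2, cuts them to short duplexes. A strand of each duplex is loaded into an Argonaute protein, and TNRC6A, a GW182 protein, links the loaded Argonaute to the enzymes that shorten poly(A) tails. A synthetic siRNA enters this route as a finished duplex, at the Argonaute step.

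Depth ranged from 25152313 to 32753184 counts per library. SOX2, the targeted gene, had 6647 to 8093 counts in control and 1513 to 1776 in SOX2 siRNA libraries, which left 20.5% of the control level. Of 9 pluripotent-cell markers, 6 were above 10 CPM (counts divided by the scaled library size) in every library, while TDGF1 had at most 3 counts in any library. The 9, which include the targeted SOX2, together summed to 1745 to 1769 CPM in control and 2164 to 2187 CPM in SOX2 siRNA libraries, without overlap. LIN28A, the highest, averaged 706 and 1148 CPM. Its rise alone was about as large as that of the sum, which therefore does not show a rise across the 9. Fibroblast markers summed to 288 to 332 CPM in control and 384 to 435 CPM in SOX2 siRNA libraries, mostly COL1A1. Endothelial markers, mostly PECAM1, summed to 88.4 to 92.1 and 61.4 to 63.5 CPM. The part of these marker differences in the results that follow was not tested. Leukocyte markers summed to at most 18.5 CPM, mostly LYZ, which was lowest in control replicate 3 and SOX2 siRNA replicate 2, and epithelial markers to at most 8.30 CPM with KRT14 at 0 throughout. Cells with less of a transcript and fewer cells carrying it cannot be told apart in bulk RNA.

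The sequences shown here place the machinery genes in the genome. The RefSeq promoter table (GRCh38.p14) held 15 windows, from 250 bases before to 50 after a transcription start, for 9 of the 10 genes, all but AGO2. DICER1, which rose after SOX2 siRNA, had 5 windows. The 250 bases before the start in the first listed are on the minus strand at chr14:95157530-95157779. AGO1, whose change did not pass the test, is also shown, on the plus strand at chr1:35882959-35883208. Capitals mark a match to either of a pair of SOX core sequences, ACAAAG and ACAATG, searched on both strands.
DICER1: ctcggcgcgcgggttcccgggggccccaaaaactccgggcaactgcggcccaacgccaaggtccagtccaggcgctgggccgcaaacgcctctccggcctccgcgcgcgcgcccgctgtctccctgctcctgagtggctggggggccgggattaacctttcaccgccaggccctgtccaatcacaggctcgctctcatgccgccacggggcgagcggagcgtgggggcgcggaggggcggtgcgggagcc
AGO1: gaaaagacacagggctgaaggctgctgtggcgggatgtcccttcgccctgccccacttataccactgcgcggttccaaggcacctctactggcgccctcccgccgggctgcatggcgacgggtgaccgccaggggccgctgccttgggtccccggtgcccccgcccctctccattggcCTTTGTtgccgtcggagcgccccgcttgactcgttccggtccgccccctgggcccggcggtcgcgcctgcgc
The AGO1 match, CTTTGT, begins 72 bases before the start. Of the 9 genes, only AGO1 and DICER1 had a match in any window, so AGO1 is not a neutral comparison. ACAAAG was found in 2 of the 15 windows of these genes, against 16.1% of all 35116 windows in the table, and ACAATG in 1 of 15, against 10.8%. The other matches were in the 2 DICER1 windows that lie farthest downstream, where GC content was 39.3% and 34.0%. The windows of DGCR8 and AGO3 were the richest in GC, at 80.3% and 80.0%, against a median of 58.7% over all windows. A match is a description of the letters and not a binding site.

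Among the 10 genes, AGO2 fell and DICER1 rose after SOX2 siRNA, and no other member passed the test. AGO2, the Argonaute best known for cutting fully paired targets, was left at 83.0% of its control level, and DICER1 rose to 113.8% of its own. Both changes were small beside the loss of SOX2. The count of 2 called members of 10, 1 in each direction, compares with 28.2% of all 17592 tested genes (edgeR quasi-likelihood F-test, p adjusted by Benjamini and Hochberg over all tested genes, under 0.05), so the share did not stand above the background. Of all tested genes 14.8% were called higher and 13.4% lower. The median log2 fold change of the 10 was -0.015, against -0.00085 over all tested genes. The median size of the change regardless of sign was 0.085 against 0.15. The 10 averaged 4.96 to 8.02 in log2 CPM, and the tested genes were not matched to them for expression level. Control and SOX2 siRNA libraries were fully separated for 4 of the 10, AGO1, AGO2, XPO5 and DICER1, against 41.8% of tested genes.

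**Figure D1:**
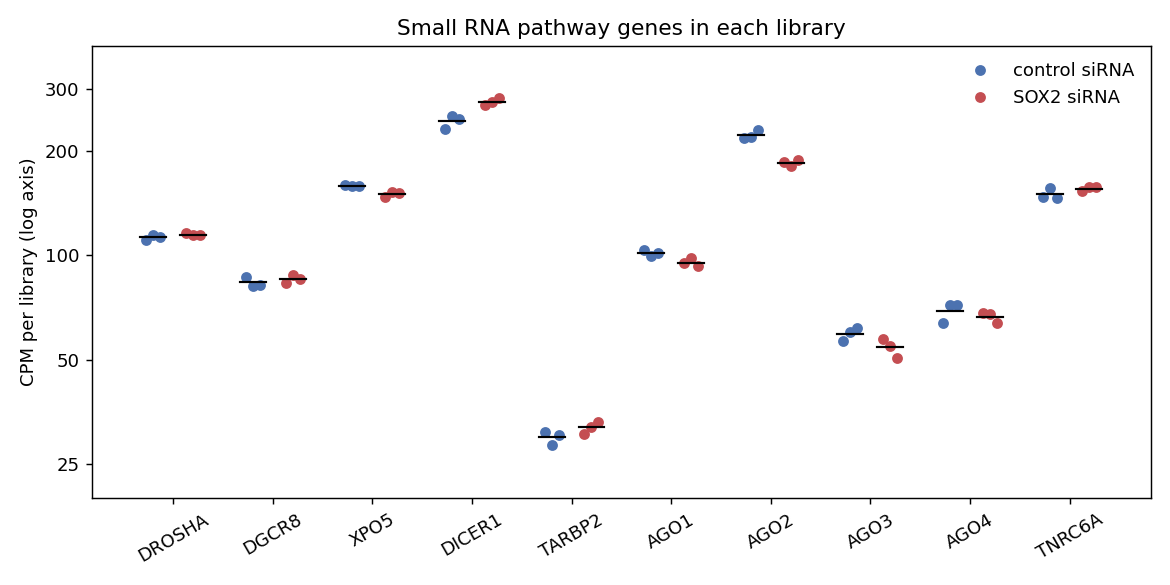
Expression of the 10 small RNA pathway genes in each library, in CPM on a log axis; each point is a library, blue for control siRNA and red for SOX2 siRNA, and black bars are means of 3. AGO2 points separate downward and DICER1 points upward, while those of DROSHA, DGCR8, TARBP2, AGO3, AGO4 and TNRC6A overlap between groups.

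The nuclear step showed no called change. DROSHA, the ribonuclease that makes the first cut, stood at 111, 115 and 113 CPM in the control libraries, in replicate order, and at 116, 114 and 114 CPM after SOX2 siRNA. The groups overlapped, and the log2 fold change was 0.02 with a 95% interval from -0.052 to 0.10 (edgeR adjusted p = 0.676). DGCR8, which recognises the hairpin and holds DROSHA to it, had 86.6, 81.7 and 82.2 CPM in control and 83.0, 87.9 and 85.3 CPM in SOX2 siRNA libraries. Its groups also overlapped, with a log2 fold change of 0.03 and an interval from -0.056 to 0.12 (edgeR adjusted p = 0.624). The ratio of DGCR8 to DROSHA counts, which does not depend on how libraries are scaled and is not corrected for length, so that it is read only between libraries, was 0.741 ± 0.0363 in control libraries and 0.745 ± 0.0273 after SOX2 siRNA (SD, n = 3; exact permutation p = 0.9, two-sided).

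Microprocessor is known to cut hairpins within the DGCR8 messenger RNA itself, and the annotation places 2 microRNA genes, MIR3618 and MIR1306, within DGCR8 exons on the same strand. Their mature products are shown because they mark where those hairpins lie. They span chr22:20085797-20085818 for miR-3618, chr22:20086072-20086093 for miR-1306-5p and chr22:20086112-20086129 for miR-1306-3p (RefSeq, GRCh38.p14, plus strand). Capitals mark the seed, bases 2 to 8, and no seed is shared.
miR-3618: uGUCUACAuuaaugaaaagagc
miR-1306-5p: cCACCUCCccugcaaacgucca
miR-1306-3p: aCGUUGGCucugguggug
The table lists the microRNA genes apart from DGCR8: MIR1306 had 5 counts in control replicate 1 and 0 in the other 5 libraries, and MIR3618 had 0 in all 6. Polyadenylated RNA libraries of this kind do not measure mature microRNAs, so these values say nothing of their levels.

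XPO5, the export receptor, had 159, 158 and 158 CPM in control and 147, 152 and 151 CPM in SOX2 siRNA libraries. Every SOX2 siRNA library lay below every control library, but the difference did not pass after adjustment (log2 fold change -0.079, SE 0.035, 95% interval -0.15 to -0.0059; edgeR unadjusted p = 0.0358, adjusted p = 0.103). XPO5 had the closest control replicates of the 10, with a coefficient of variation of 0.499%. With 3 libraries such closeness cannot be told from a coincidence, and it is not given as a trait of the gene. Exons of XPO5 and of POLR1C on the opposite strand share 348 bases, 4.08% of XPO5 exon length, and the use of strand in counting is not given in the sources used here. POLR1C stood at 21.5 ± 0.899 and 22.02 ± 0.537 CPM (SD, n = 3).

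DICER1, the cytoplasmic ribonuclease, drew the most reads of the 10. Its control libraries had 230.2, 251 and 247 CPM and its SOX2 siRNA libraries 269.9, 276 and 283 CPM. The lowest SOX2 siRNA library was above the highest control library. Mean expression rose from 243 ± 11.1 to 276 ± 6.57 CPM (SD, n = 3), a log2 fold change of 0.19 (SE 0.039, 95% interval 0.11 to 0.27; edgeR adjusted p = 0.00137). With 3 libraries a side, exact permutation of the labels cannot give a p below 0.1. DICER1-AS1, on the opposite strand, shares 80 exon bases with DICER1 and had 99 to 134 counts in control and 105 to 133 in SOX2 siRNA libraries, far below the 6299 to 8914 counts of DICER1. Relative to DROSHA counts in the same library, DICER1 went from 2.15 ± 0.0641 to 2.41 ± 0.0775, without overlap (SD, n = 3, exact permutation p = 0.1, adjusted over 6 ratios 0.15). DROSHA itself was not called, so this ratio largely restates the DICER1 difference and is not a separate result.

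TARBP2, the double-stranded RNA-binding partner of DICER1, drew the fewest reads, at 31.0, 28.4 and 30.4 CPM in control and 30.6, 32.0 and 33.2 CPM in SOX2 siRNA libraries. The groups overlapped, and the log2 fold change of 0.09 had an interval from -0.026 to 0.21 (edgeR adjusted p = 0.251). The ratio of TARBP2 to DICER1 counts was 0.124 ± 0.0109 in control libraries and 0.116 ± 0.00205 after SOX2 siRNA (SD, n = 3; exact permutation p = 0.4, two-sided).

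AGO2 changed most among the 10. It lies on the minus strand of chromosome 8, whereas AGO4, AGO1 and AGO3 lie head to tail on the plus strand of chromosome 1, from 35808172 to 36072500 in GRCh38 (GENCODE 29), with 11917 bases between AGO4 and AGO1 and 189 between AGO1 and AGO3. GENCODE 29 begins AGO1 at 35869808, upstream of the RefSeq start used for the promoter window above. The gap before AGO1 therefore depends on the annotation, and the bases before the GENCODE start were not searched. AGO2 had 217, 219 and 229.6 CPM in control and 185, 180.1 and 188 CPM in SOX2 siRNA libraries. No SOX2 siRNA library reached the lowest control library. The mean of 222 ± 6.56 CPM fell to 184 ± 3.92 (SD over 3 libraries; log2 fold change -0.27, SE 0.036, 95% interval -0.35 to -0.19; edgeR adjusted p = 2.20e-05). Of all tested genes, 29.2% had a larger change in either direction. Genes whose annotated exons overlap those of AGO1, AGO2 or AGO3 had at most 7 counts in any library.

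The chromosome 1 Argonautes had log2 fold changes of the same sign, but none passed the test. AGO1 had 104, 99.1 and 101 CPM in control and 95.04, 97.8 and 92.8 CPM in SOX2 siRNA libraries, which did not overlap (log2 fold change -0.09, 95% interval -0.17 to -0.0079; edgeR unadjusted p = 0.0335, adjusted p = 0.0978). AGO3 had 56.7, 60.0 and 61.7 CPM in control and 57.2, 55.0 and 50.7 CPM in SOX2 siRNA libraries. SOX2 siRNA replicate 1 lay inside the control range, and the log2 fold change of -0.13 had an adjusted p of 0.0684 by edgeR. Without that library AGO3 had an edgeR adjusted p of 0.0203 (log2 fold change -0.17), and without control replicate 1 of 0.0430 (-0.16); over all alternatives its adjusted p ran from 0.0203 to 0.260. AGO4 had 63.8, 71.8 and 71.8 CPM in control and 68.0, 67.8 and 63.6 CPM in SOX2 siRNA libraries, which overlapped (log2 fold change -0.055, 95% interval -0.16 to 0.052; edgeR adjusted p = 0.467). Counting without adjustment, 5 of the 10 members had a p under 0.05, 4 of them lower, against 37.7% of tested genes.

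**Figure D2:**
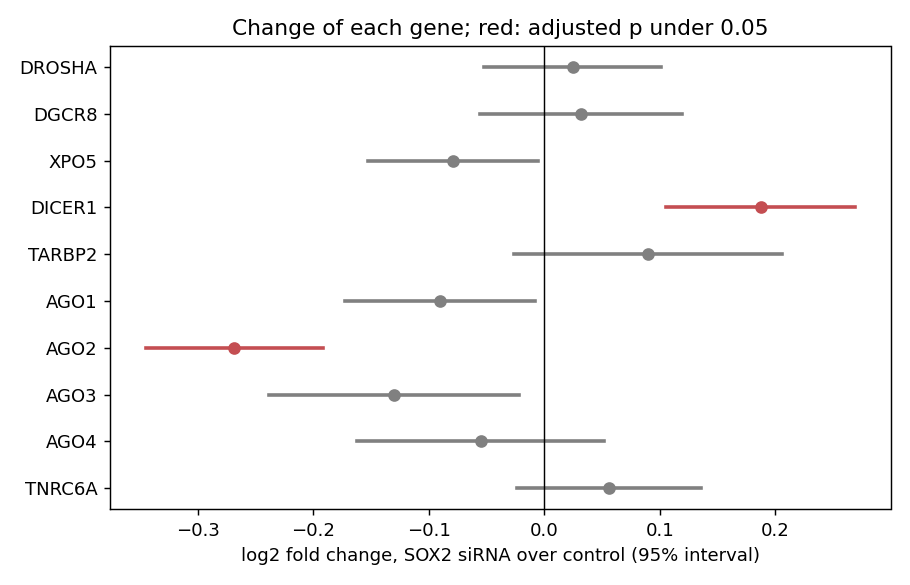
Log2 fold change of each of the 10 genes, SOX2 siRNA over control, as a point with its 95% interval; red marks an edgeR adjusted p under 0.05. AGO2 at -0.27 and DICER1 at 0.19 are red; the intervals of XPO5, AGO1 and AGO3 lie below 0 without passing after adjustment, and those of the other 5 include 0.

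Levels of different genes were compared as CPM per kilobase of annotated exons. In control libraries AGO2 was the highest Argonaute at 14.0 ± 0.414, followed by AGO4 at 9.52 ± 0.633, AGO1 at 7.30 ± 0.166 and AGO3 at 2.81 ± 0.119 CPM per kilobase (SD, n = 3). No neighbours in this order overlapped between control libraries. The order of AGO4 and AGO1 depended on the length used, because the annotated exons of AGO1 and AGO3 add up to 13.9 and 21.2 kilobases and those of AGO4 to 7.27, while their longest coding sequences are near equal at 2.57, 2.58 and 2.58 kilobases. Per kilobase of coding sequence AGO2 had 86.2 ± 2.55, AGO1 39.4 ± 0.896, AGO4 26.8 ± 1.78 and AGO3 23.0 ± 0.975 CPM (SD, n = 3). AGO2 was first and AGO3 last by either length. The counts are for whole genes while the coding length leaves out untranslated regions, so genes with long untranslated regions stand higher by it.

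Among all 10 genes in control libraries, DICER1 at 19.7 ± 0.906 and XPO5 at 18.6 ± 0.0928 CPM per kilobase of exons were the highest (SD, n = 3), above 87.7% and 86.7% of the 16904 tested genes with a length. By this length the control libraries of DROSHA, at 14.5 ± 0.246, overlapped those of AGO2, those of TNRC6A, at 11.6 ± 0.423, overlapped those of DGCR8, at 11.4 ± 0.370, and those of TARBP2, at 7.33 ± 0.334, overlapped those of AGO1. AGO3 was the lowest and stood above 43.3% of tested genes. Parts of this order depended on the length used. Per kilobase of the longest transcript XPO5 was first at 29.6 and DICER1 second at 23.5 CPM, and DROSHA at 21.2 lay above AGO2 at 15.2 without overlap. Per kilobase of coding sequence AGO2 was first at 86.2, above XPO5 at 43.9 and DICER1 at 42.1, and DROSHA at 27.3 lay far below it. Coding lengths also put DGCR8, at 36.0, above TNRC6A, at 25.4, and AGO1, at 39.4, above TARBP2, at 27.3 CPM per kilobase, without overlap. By the longest transcript TARBP2, at 16.0, instead lay above AGO1, at 7.39, without overlap, and AGO2 ranked 7 of the 10. AGO3 was last of the 10 by each of the 3 lengths.

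As a share of the summed level of the 4 Argonautes per kilobase of exons, AGO2 made up 42.0%, 41.1% and 41.9% in the control libraries and 38.3%, 37.5% and 39.9% after SOX2 siRNA. The shares did not overlap, and the mean share was lower by 3.13 percentage points, at 38.6% ± 1.25 against 41.7% ± 0.495 (SD, n = 3; exact permutation p = 0.1, adjusted over the 4 Argonautes 0.2). The share of AGO4 was higher, from 28.3% ± 1.23 to 30.3% ± 0.674, with no overlap (SD, n = 3; exact permutation p = 0.1, adjusted 0.2). AGO1 moved by 0.99 points and AGO3 by 0.14 points, and both overlapped between groups (exact permutation p = 0.3 and 0.6). Without control replicate 1 the difference was 1.32 points for AGO4, from 2.00, and 1.57 points for AGO1. The 4 shares are parts of one sum, so a lower AGO2 share requires a higher sum of the other shares. The higher AGO4 share is therefore not a separate result. The level of AGO4 did not rise, with means of 9.52 in control and 9.15 CPM per kilobase of exons after SOX2 siRNA. The summed level itself was 32.7, 33.7 and 34.6 CPM per kilobase in control and 30.6, 30.4 and 29.7 in SOX2 siRNA libraries. The ratio of AGO2 to AGO1 counts was 2.19 ± 0.0895 in control libraries and 1.94 ± 0.0914 after SOX2 siRNA (SD, n = 3; exact permutation p = 0.1, adjusted over 6 ratios 0.15). AGO2 was the only called Argonaute, so its lower share and this ratio largely restate the fall of AGO2 and are not separate results.

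**Figure D3:**
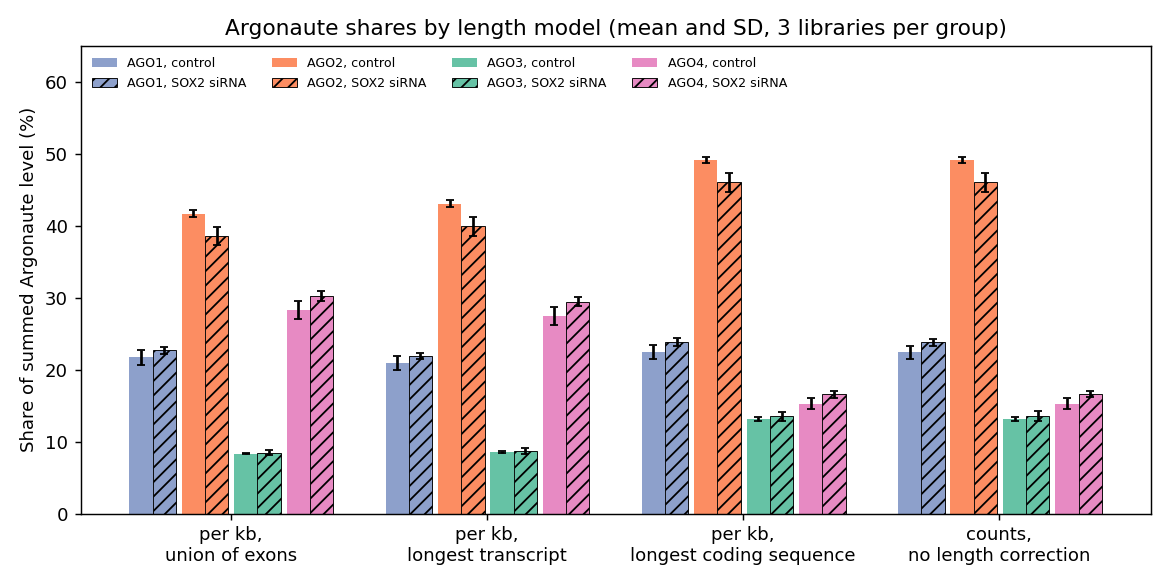
Share of the summed Argonaute level held by AGO1 to AGO4 under 3 length models and without length correction, as means with SD over 3 libraries; plain bars are control and hatched bars SOX2 siRNA. AGO2 is the largest share in each model and is lower after SOX2 siRNA in each, while AGO4 ranks above AGO1 only where whole-transcript lengths are used.

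By the Pearson correlation of log2 CPM over the 6 libraries, the genes most like AGO2 among 12109 genes averaging 2 or more in log2 CPM were METTL7A (r = 0.999), EFNB1 (r = 0.998) and ERLIN2 (r = 0.997). Such values share the group difference and the libraries, and are a description. ERLIN2 went from 112 ± 4.14 to 93.6 ± 1.80 CPM and EFNB1 from 50.4 ± 1.92 to 38.4 ± 0.703 CPM (SD, n = 3), so the fall of EFNB1 was larger than that of AGO2 in proportion.

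TNRC6A, the GW182 protein among the 10, had 147, 156 and 146 CPM in control and 153, 157 and 157 CPM in SOX2 siRNA libraries, which overlapped (log2 fold change 0.056, 95% interval -0.024 to 0.14; edgeR adjusted p = 0.303). Its paralogs fell. TNRC6B had 166, 179 and 169 CPM in control and 143, 137 and 135 CPM in SOX2 siRNA libraries (log2 fold change -0.31, SE 0.039; edgeR adjusted p = 1.22e-05). TNRC6C, chosen after its values were seen, averaged 29.2 ± 0.425 CPM in control libraries and 24.5 ± 1.35 after SOX2 siRNA (SD, n = 3; log2 fold change -0.25; edgeR adjusted p = 0.00250). TNRC6C shares 1438 exon bases, 12.9% of its exon length, with TNRC6C-AS1 on the opposite strand. Against TNRC6A in the same library, TNRC6B counts went from 1.14 ± 0.0101 to 0.890 ± 0.0375 and TNRC6C counts from 0.195 ± 0.00525 to 0.158 ± 0.0109 (SD, n = 3). Neither ratio overlapped between groups (exact permutation p = 0.1 for each, adjusted over 6 ratios 0.15). TNRC6A itself was not called, so these ratios largely restate the falls of its paralogs.

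The rest of the pathway was followed in 6 lists of 98 genes, of which 85 were tested and 17 called, 7 higher and 10 lower; that is 20%, against 28.2% of all tested genes. Without control replicate 3, 11 were called, 6 of them lower. The share of all tested genes called without that library was not counted. All 85 changes were under 2-fold. Of all tested genes, 12.1% changed more than any of the 85 did, in either direction. In the list of GW182 paralogs and deadenylation factors, 8 of 20 were called, or 40%, against 28.2% of all tested genes. Whether the list differs from that background was not tested. The calls were 4 in each direction, and the median log2 fold change was 0.03. TOB1, an adaptor that recruits the CCR4-NOT deadenylase, rose from 17.7 ± 1.22 CPM to 25.4 ± 0.978 (SD over 3 libraries; log2 fold change 0.52, edgeR adjusted p = 7.21e-06), the largest change among the tested genes of these lists. Exons of TOB1 share 11.2% of their length with TOB1-AS1 on the opposite strand. CNOT9, a CCR4-NOT subunit that binds GW182 proteins, rose by 0.24 on the log2 scale, and PABPC1, the cytoplasmic poly(A)-binding protein, fell by 0.19, from 1741 ± 32.2 to 1525 ± 8.75 CPM (SD, n = 3). CNOT1, the scaffold of that complex, stood at 588 to 607 CPM in control and 570.1 to 587 CPM in SOX2 siRNA libraries and was not called (edgeR adjusted p = 0.342).

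Of 15 Microprocessor partners and regulators, 2 were called, both lower: the cap-binding subunit NCBP2 (log2 fold change -0.15; edgeR adjusted p = 0.0137) and the RNA-binding protein HNRNPA1 (-0.11; adjusted p = 0.0158). Of 15 genes of nuclear export and of loading of Dicer products, the Hsp90 co-chaperones FKBP4 (0.12) and PTGES3 (-0.10) were called in opposite directions. RAN, the GTPase that works with XPO5, had a log2 fold change of -0.0098, and PRKRA, a relative of TARBP2 that also binds DICER1, of -0.0057; neither was called. NCBP2 lost its call without control replicate 2 (edgeR adjusted p = 0.0535), HNRNPA1 without control replicate 3 (0.0639), and PTGES3 without control replicate 3 (0.108) or SOX2 siRNA replicate 2 (0.0577). FKBP4 lost its call without control replicate 2 (0.135) or 3 (0.0848) and without SOX2 siRNA replicate 2 (0.142) or 3 (0.0624). It also lost it in the DESeq2 Wald test (adjusted p = 0.0540), and PTGES3 with no filter beyond 1 count (edgeR adjusted p = 0.0603). The number called in the export and loading list was 0 without control replicate 3 or SOX2 siRNA replicate 2, 1 without control replicate 2, and 4 without SOX2 siRNA replicate 1. HNRNPA1, PTGES3 and RAN, like PABPC1, have processed pseudogene copies, so their counts are uncertain where reads could be split. The medians of these lists were -0.025 and 0.018, and 13.3% of the genes in each were called, against 28.2% of all tested genes.

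Of 19 genes of decapping, decay and translational repression, 4 were called, or 21.1%, against 28.2% of all tested genes. WTIP, a LIM-domain protein, fell by 0.35 on the log2 scale, DCP2, the decapping enzyme, by 0.12 and LSM14A by 0.11, while EDC4, a decapping scaffold, rose by 0.20. DCP2 and LSM14A lost their calls without control replicate 2 (edgeR adjusted p = 0.0727 and 0.0992), control replicate 3 (0.0698 and 0.0863) or SOX2 siRNA replicate 2 (0.0542 and 0.0715), and LSM14A also without SOX2 siRNA replicate 3 (0.0688) and with no filter beyond 1 count (0.0692). Exons of EDC4 share 21.2% of their length with AC040162.3 on the same strand, so its count is uncertain to that extent. Of 13 tested genes of microRNA tailing and turnover, 1 was called (HENMT1, the untested member, had 0 counts throughout): ZSWIM8, the ubiquitin ligase adaptor that brings about Argonaute breakdown on certain targets, rose from 41.7 ± 2.22 CPM to 52.5 ± 0.911 (SD over 3 libraries; log2 fold change 0.33; edgeR adjusted p = 5.36e-05). The call of ZSWIM8 alone made up 7.69% of the tested genes in this list, against 28.2% of all tested genes. The number called in this list was 3 without control replicate 1 or with total counts as library sizes, 2 without SOX2 siRNA replicate 1 or 3, and 2 with either other filter or a replicate block. Exons of ZSWIM8 overlap those of AC022400.6 and ZSWIM8-AS1 on the opposite strand, over 16.7% and 11.9% of its exon length. TUT4, a terminal uridylyltransferase, had 146, 158 and 148 CPM in control and 146, 138 and 132 CPM in SOX2 siRNA libraries and was not called (edgeR adjusted p = 0.0521).

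The PIWI branch of the Argonaute family, which serves the germline, was near the floor of detection. Of 15 genes of that list 12 were not tested for low counts, and 8 of the 15 had at most 3 counts in every library. PIWIL1 and PIWIL3 had at most 1 and 2 counts in any library and PIWIL2 at most 9. PIWIL4 drew the most reads of the PIWI genes, with 43 to 59 counts in control and 52 to 67 in SOX2 siRNA libraries, and was not called (edgeR adjusted p = 0.407), with part of its exons shared with FUT4 on the same strand. TDRKH, a Tudor-domain protein with a role in piRNA trimming, had 413 to 564 counts and was not called (edgeR adjusted p = 0.272).

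**Figure D4:**
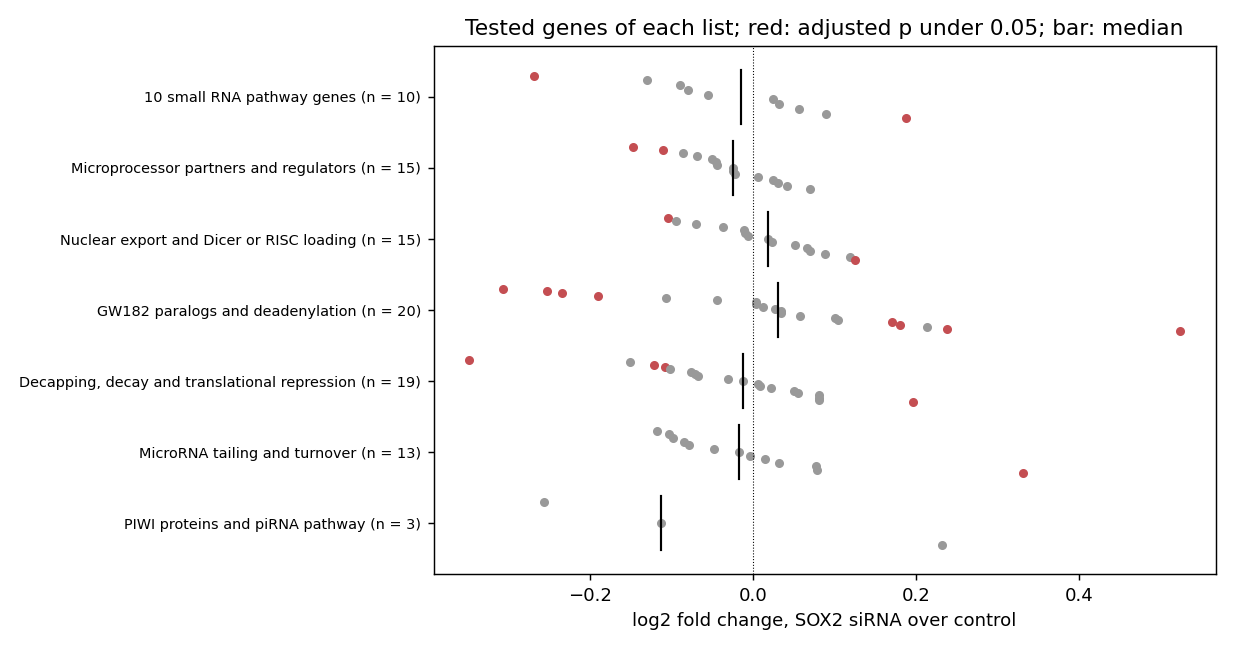
Log2 fold changes, SOX2 siRNA over control, of the tested genes in the set of 10 and in each of 6 related lists; each point is a gene, red for an edgeR adjusted p under 0.05, and black bars are medians. Medians of lists with 10 or more tested genes lie between -0.025 and 0.03, and the red points of the deadenylation list fall on both sides of 0.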

How the data were processed

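Messenger RNA was measured in 3 control siRNA and 3 SOX2 siRNA libraries; Trizol was used for extraction and a KAPA mRNA HyperPrep kit for library preparation, per the labels' protocols. Values in the deposited table are raw counts of reads, listed by gene symbol. The submitters' processing notes name bcl2fastq 2.20.0, STAR 2.7.3a, Salmon 0.14.1, DESeq2 1.28.1 and GRCh38.p13, without roles; annotation and strand use are not given in the sources used here.

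The analysis was run in Python 3.11.15 and R 4.3.3 (DESeq2 1.42.0, edgeR 4.0.16, limma 3.58.1). Genes were kept by filterByExpr (minimum count 10), scaled by TMM (factors 0.991 to 1.01) and tested with edgeR's quasi-likelihood F-test (robust), adjusted over all 17592 tested genes, threshold 0.05. Standard errors are the log2 fold change over the square root of F. CPM use TMM-scaled library sizes. Depths of 25152313 to 32753184 counts put 3 counts at 0.0916 to 0.119 CPM, for counting error only. GENCODE 29 gave lengths and overlaps (96.1% of tested genes matched by unique symbol); it need not be the authors' annotation. The fit was run on simulated data whose planted changes were all larger than those of AGO2 and DICER1. That run therefore does not bear on calls of their size.

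The 10 genes and all lists, written from general knowledge, were chosen with earlier results of these data known. Named genes are the 10, SOX2, at most 4 called genes of each list, by p, and the 3 genes most correlated with the called member of smallest p. Genes named as not called, TNRC6C, the PIWI genes and the count ratios were chosen after the values were seen. Replicate pairs differed beyond counting noise (chi-square per degree of freedom 2.87 to 6.43). Alternatives were DESeq2 size factors, total counts, 2 other filters, DESeq2, limma-voom, no robust fit, a replicate block, each library left out, and other gene lengths. No library was left out of the main results.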

Additional observations from a re-analysis of the deposited data

How the results depend on the processing

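AGO2 stayed lower (-0.28 to -0.24 on the log2 scale; edgeR, DESeq2 or limma adjusted p 1.36e-10 to 5.61e-04) and DICER1 higher (0.15 to 0.21; adjusted p 1.22e-05 to 0.0108) under each of their 14 alternatives. Called members numbered 2 to 3 when a library was left out, 1 to 2 of them lower, the third being AGO3 without control replicate 1 or SOX2 siRNA replicate 1. Pathway list calls then ran from 11 to 21, and lower ones from 6 to 13, against 17 and 10; the lowest value came without control replicate 3. Calls ran from 0 to 4 in the export and loading list and from 1 to 3 in the tailing list. Shares of all tested genes called in those fits were not counted. Of 336 values for 24 genes, 18 lost a call, 2 gained one and none changed sign. With the replicate number as a block, 2 members were called (AGO2 -0.27, DICER1 0.19) and 20 pathway genes; the numbers share no stated source, and same-numbered libraries correlated at 0.0868, -0.0377 and -0.0311 in their deviations. The share of AGO2 in control was 43.1% with longest-transcript lengths, 49.1% with coding lengths and 49.1% without length correction; of AGO3 8.54%, 13.1% and 13.2%; and of AGO4 15.3% with coding lengths and 15.3% without correction. The lengths themselves set these moves. The AGO3 share difference ran from -0.036 to 0.35 points with a library left out, negative without SOX2 siRNA replicate 1; that of AGO1 from 0.67 to 1.57 and that of AGO4 from 1.32 to 2.52. The 10 genes had at least 712 counts in each library. How much of the spread between libraries of each of the 10 genes was counting error was not tested. A gene not called is not shown to be unchanged.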
